A study of Homo sapiens with 8 samples.

Results

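The genes described here encode the proteasome: the subunits of its 20S core and 19S regulatory particle, its activators and inhibitor, and the chaperones that assemble the core. They were found by symbol, as probe sets annotated with a single gene symbol that starts with PSMA to PSMG and a number, leaving out PSMB8 and PSMB9. This gave 48 genes of 19775 in all, of which 40 encode proteasome proteins. The other 8 carry such a symbol but are no proteasome proteins, and they are described apart. Each gene was read from its brightest probe set, and 39 of the 40 passed the filter on dim genes and were tested. PSMA6 and PSME2, whose probe sets carry several symbols, are not analysed here, and neither are PSMC5, PSMD7 and PSMD13.

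The samples were 4 quiescent and 4 cycling fractions of RL, a human B lymphoma cell line with the t(14,18) translocation. Every sample came from multicellular aggregates after 14 days of culture. Quiescent cells were sorted as dull, and cycling cells as bright, for pyronin Y, a dye that binds RNA. Total RNA was hybridised to Affymetrix U133 Plus 2.0 arrays, and a value is the MAS5 intensity of a probe set, which sums up the brightness of its probes. No label states that replicate samples were cultured separately, so the p-values reflect a spread between samples that may be technical only.

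The proteasome is the protease that degrades proteins tagged with ubiquitin. Its core is a barrel with outer rings of alpha subunits (PSMA) and inner rings of beta subunits (PSMB), and PSMB5, PSMB6 and PSMB7 carry the cutting sites. The regulatory particle caps the barrel, with a ring of ATPases (PSMC) and further subunits (mostly PSMD) that bind, unfold and deubiquitinate substrates. Cyclins and CDK inhibitors are among its substrates. Transcription of many subunit genes is known to be raised by NFE2L1, a factor that binds antioxidant response elements, when the protease falls short.

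Because NFE2L1 acts through the promoters of these genes, the 250 bases before the annotated gene start were read for its element. RefSeq promoters of GRCh38.p14 were matched for 34 of the 40 genes, and the first start listed was used for each. The element TGACNNNGC was found on either strand in 9 of these 34 windows (26.5%), against 11% of all 27305 windows. These 9 were PSMB3, PSMD3, PSMD5, PSMD9, PSMD12, PSME1, PSME4, PSMG1 and PSMG2. The 27305 windows are 1 for every gene with a listed promoter, whether tested here or not, and were not matched for base composition. The looser form TGANNNNGC, which contains the first, was held by 52.9% of the windows against 35.4% of all. The ETS core CCGGAAG was held by 26.5% against 8.82% of all, the CCAAT box CCAAT by 41.2% against 33%, and the interferon-stimulated response element by 11.8% against 3.07%. GCGCATGC, the NRF1 core, was in 1 window (2.94%, against 2.81% of all) and AAGATGGC, the YY1 core, in 1 (2.94%, against 1.37%). The windows of 6 of the 9 genes are printed, with the element in capitals: in each class the called gene with the lowest difference, and then both genes that were not called.
PSMB3 (chr17:38752491-38752740, plus strand): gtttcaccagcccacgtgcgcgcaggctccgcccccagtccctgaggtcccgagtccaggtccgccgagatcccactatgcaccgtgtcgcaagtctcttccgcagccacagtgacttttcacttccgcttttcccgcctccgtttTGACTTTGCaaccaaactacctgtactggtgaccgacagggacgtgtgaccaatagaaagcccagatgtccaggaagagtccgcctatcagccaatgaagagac
PSMD9 (chr12:121888540-121888789, plus strand): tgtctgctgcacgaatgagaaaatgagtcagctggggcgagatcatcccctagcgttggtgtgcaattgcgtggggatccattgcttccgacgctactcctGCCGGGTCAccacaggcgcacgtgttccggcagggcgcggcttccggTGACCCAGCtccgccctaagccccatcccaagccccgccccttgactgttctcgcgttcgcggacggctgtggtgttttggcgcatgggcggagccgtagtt
PSME4 (chr2:53970994-53971243, minus strand): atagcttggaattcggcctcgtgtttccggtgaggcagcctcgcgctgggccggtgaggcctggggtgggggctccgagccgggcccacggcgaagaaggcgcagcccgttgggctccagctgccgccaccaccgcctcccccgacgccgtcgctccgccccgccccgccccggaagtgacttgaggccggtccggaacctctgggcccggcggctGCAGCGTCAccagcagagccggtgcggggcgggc
PSMG1 (chr21:39183452-39183701, minus strand): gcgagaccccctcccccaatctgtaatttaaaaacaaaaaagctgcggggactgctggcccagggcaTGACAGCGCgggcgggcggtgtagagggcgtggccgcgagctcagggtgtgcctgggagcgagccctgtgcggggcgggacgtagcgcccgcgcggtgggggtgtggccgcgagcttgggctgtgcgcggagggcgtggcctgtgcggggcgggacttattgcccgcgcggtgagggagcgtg
PSMD5 (chr9:120842923-120843172, minus strand): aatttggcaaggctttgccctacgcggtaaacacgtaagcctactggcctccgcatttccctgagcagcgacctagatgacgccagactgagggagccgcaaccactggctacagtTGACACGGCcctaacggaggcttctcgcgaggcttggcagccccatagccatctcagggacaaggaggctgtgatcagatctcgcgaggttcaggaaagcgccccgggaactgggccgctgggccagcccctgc
PSME1 (chr14:24135944-24136193, plus strand): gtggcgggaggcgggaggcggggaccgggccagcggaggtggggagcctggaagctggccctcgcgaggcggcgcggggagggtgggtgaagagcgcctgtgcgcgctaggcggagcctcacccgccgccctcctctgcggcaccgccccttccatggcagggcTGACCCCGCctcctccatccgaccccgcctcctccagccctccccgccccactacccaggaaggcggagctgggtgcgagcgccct
The PSMD9 window holds the element on both strands, and the PSME4 window holds it on the opposite strand 26 bases before the start. A match of letters is a description of the sequence and not a bound site.

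Proteasome genes were lower in quiescent cells as a group. With arrays centred on their medians, 37 of 39 genes fell and 0 rose (limma, adjusted p under 0.05), where 32.5% of all 11678 genes tested were called lower and 2.8% higher. The median log2 difference, quiescent minus cycling, was −1.06 for the proteasome and −0.33 for all genes tested, so that the proteasome median lay 0.73 below that of all genes. Without centring, as deposited, 32 of the 39 fell and 0 rose, against 15.4% of all genes lower and 12.3% higher, and the medians were −0.65 and 0.08. After quantile normalization 28 fell and 0 rose, against 16.4% and 10.5% of all genes. These 28 were called lower in all 3 scalings, as were 14.1% of all genes tested. Centring moves every difference by the same 0.412, so differences below are centred unless stated. Each array was scaled by itself, so a difference is relative to the other RNA on the array, and in such bulk samples fewer cells of a type and less RNA per cell cannot be told apart.

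As a share of each array's summed intensity, which is itself a scaling and stays close to the deposited values, the groups kept the same order. The probe sets of the 39 genes held 0.363, 0.346, 0.338 and 0.332% of the summed intensity of the quiescent arrays, and 0.561, 0.472, 0.544 and 0.541% of that of the cycling arrays. The group means were 0.345 ± 0.013% and 0.53 ± 0.039% (SD, n = 4 each), and the groups do not overlap. For 31 of the 39 genes every quiescent array lay below every cycling array in the deposited intensities, where 15.4% of all genes tested did so. In rank from the lowest difference, the median proteasome gene stood at 1261 of 11678, and 37 of 39 lay below the median of all genes. A difference at least 2-fold below that median was reached by 11 genes, against 5.63% of all genes. Of the 9 genes whose window holds TGACNNNGC, 7 fell and 2 were not called, with a median of −1.02, and all 24 other tested genes with a window fell, with a median of −1.21.

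**Figure D1:**
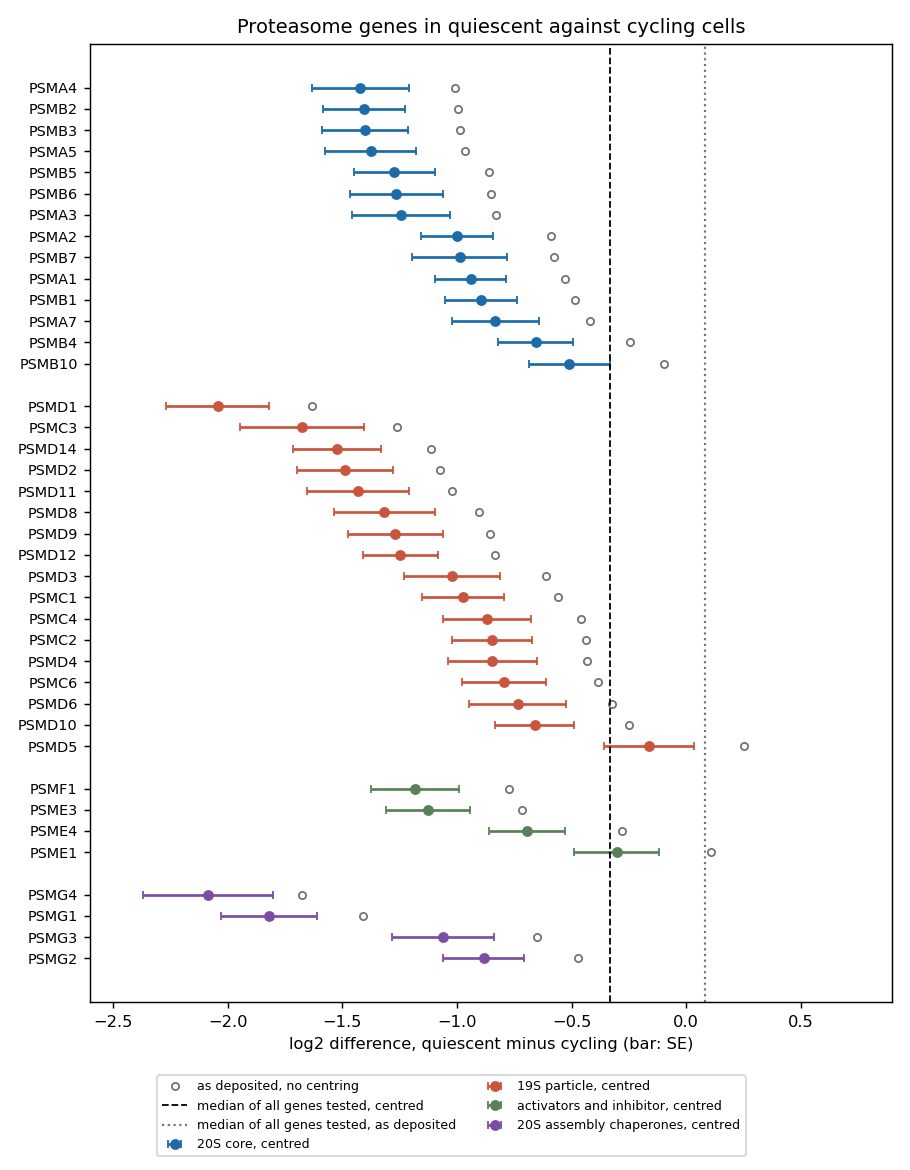
Log2 difference (quiescent minus cycling) of each of the 39 proteasome genes, by class; filled points are centred values with the SE, open circles the values as deposited, and vertical lines the medians of all genes tested. PSMD5 and PSME1 lie right of the dashed line at −0.33, and the other 37 lie left of it.

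The 4 classes all contained mostly genes that fell, and their ranges overlap. The 20S core had 14 of 14 lower with a median of −1.12, the 19S particle 16 of 17 with −1.02, the activators and inhibitor 3 of 4 with −0.91 and the 20S assembly chaperones 4 of 4 with −1.44. As deposited, 12, 14, 2 and 4 of them fell, with medians of −0.71, −0.61, −0.50 and −1.03. The spread of differences among members was an SD of 0.30 in the 20S core and 0.45 in the 19S particle, and the classes were compared by counts and medians only, with no test between them.

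The catalytic subunits of the core fell. PSMB5, which carries the chymotrypsin-like site, had intensities of 4685, 4448, 4254 and 4223 on quiescent arrays, against 8703, 6972, 8112 and 8293 on cycling arrays. PSMB6, with the caspase-like site, had 1857, 1439, 1694 and 1676 on quiescent arrays, against 3674, 2356, 3015 and 3090 on cycling arrays. PSMB7, with the trypsin-like site, had 8983, 5558, 6090 and 7151 on quiescent arrays, against 12142, 8273, 11137 and 9618 on cycling arrays. The groups do not overlap for PSMB5 and PSMB6, whereas for PSMB7 quiescent sample 1 lay above cycling sample 2. The log2 differences were −1.27 (SE 0.18, limma adjusted p = 4.19e-05) for PSMB5, −1.26 (SE 0.20, adjusted p = 1.54e-04) for PSMB6 and −0.99 (SE 0.21, adjusted p = 1.29e-03) for PSMB7, and all 3 were also called as deposited. PSMB7 had −0.42 with the mean of all its probe sets and was not called (adjusted p = 0.112).

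Of the beta subunits without a cutting site, PSMB2, PSMB3 and PSMB1 fell, with log2 differences of −1.41, −1.40 and −0.90. Over the mean of all probe sets of a gene, PSMB2 had −0.11 (adjusted p = 0.668) and PSMB1 −0.48 (adjusted p = 0.0614), and neither was called. The other probe sets of PSMB2 had −0.74 (called lower), −0.51 (not called) and 2.22 (below the filter, at intensities of 2.217 to 76.4). Those of PSMB1 had −1.05 (called lower) and 0.51 (not called, at intensities of 97.3 to 389.1). PSMB4 fell in the centred values (−0.66), and its difference of −0.24 as deposited was not called (adjusted p = 0.0816). The 7 standard beta subunits had a median of −1.26, and the 6 tested alpha subunits one of −1.12. PSMA4 was the core gene with the lowest difference, and the alpha subunits form the gate through which substrates enter. PSMA4 had 5785, 3987, 4665 and 5324 on quiescent arrays, against 12694, 7431, 9926 and 10061 on cycling arrays, a log2 difference of −1.42 (SE 0.21, adjusted p = 8.18e-05). Its groups do not overlap. PSMA5, PSMA3, PSMA2, PSMA1 and PSMA7 also fell, with differences of −1.38, −1.24, −1.0, −0.94 and −0.83. PSMA7 was not called after quantile normalization (adjusted p = 0.0691), nor PSMA3 with the mean of its probe sets (−0.12, adjusted p = 0.668). PSMA8, the subunit that takes the place of PSMA7 in testis, did not pass the filter, with intensities of 43.0 to 125.5 on quiescent and 51.0 to 74.9 on cycling arrays.

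PSMB10 stood at the upper end of the core. It encodes the subunit that replaces PSMB7 in the immunoproteasome, the form made in lymphoid cells and under interferon. PSMB10 had 1007, 855, 1013 and 1033 on quiescent arrays, against 945, 1095, 1023 and 1117 on cycling arrays, and the groups overlap. Its log2 difference of −0.51 (SE 0.18, adjusted p = 0.0308) passed only with centring, was −0.10 as deposited (adjusted p = 0.625) and −0.12 after quantile normalization (adjusted p = 0.576). It no longer passed in the centred values without quiescent sample 2 or 4, or cycling sample 3 or 4 (limma adjusted p = 0.0628 to 0.108). The 2 other immunoproteasome subunits, outside the group described here, had centred differences of −1.27 for PSMB8 (adjusted p = 6.81e-05) and −0.79 for PSMB9 (adjusted p = 4.97e-03). PSMB9 was not called as deposited (−0.38, adjusted p = 0.0871) or after quantile normalization (−0.33, adjusted p = 0.138). The log2 ratio of PSMB10 to PSMB7 on the same array was −2.81 ± 0.25 on quiescent and −3.29 ± 0.34 on cycling arrays (SD, n = 4 each). That difference of 0.48 did not pass (two-sided exact permutation p = 0.0857, adjusted over 4 pairs 0.114), and it turned to −0.09 with the mean of all probe sets of a gene. PSMB10 has 1 probe set, and the dimmer one of PSMB7 had 0.16 (not called, at intensities of 71.5 to 350.6).

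**Figure D2:**
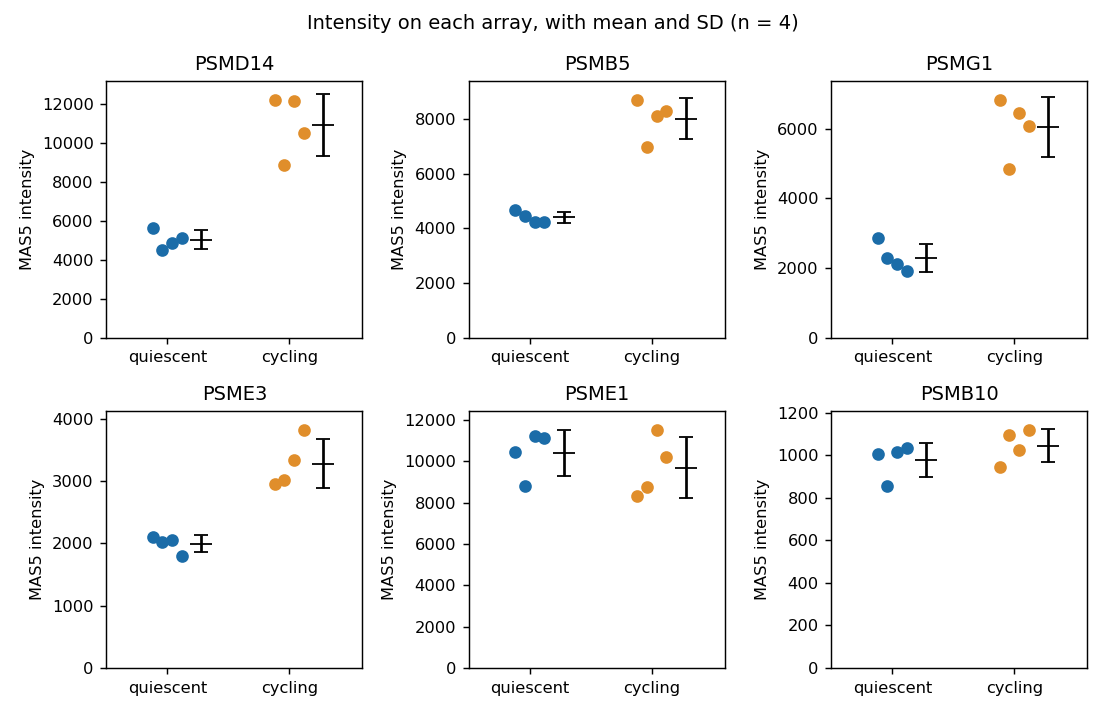
MAS5 intensity of 6 proteasome genes on each of the 4 quiescent and 4 cycling arrays, as deposited, with mean and SD beside the points. The groups are apart for PSMD14, PSMB5, PSMG1 and PSME3, and overlap for PSME1 and PSMB10.

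In the 19S particle 16 of 17 genes fell, with PSMD1, the ATPase PSMC3 and PSMD14 the lowest 3. PSMD1, a scaffold of the base that other subunits dock on, had 1793, 1842, 1578 and 1366 on quiescent arrays, against 5676, 3625, 6017 and 5324 on cycling arrays. Its log2 difference of −2.05 (SE 0.23, adjusted p = 5.38e-06) was the lowest of the class, and the groups do not overlap. PSMD14, the lid enzyme that removes ubiquitin from substrates, had 5631, 4489, 4892 and 5136 on quiescent arrays, against 12215, 8872, 12155 and 10528 on cycling arrays. Its groups also stand apart, with a difference of −1.52 (SE 0.19, adjusted p = 1.63e-05). PSMD2, the other scaffold of the base, fell with a difference of −1.49. The lid subunits PSMD11, PSMD8, PSMD12 and PSMD3 fell with −1.43, −1.32, −1.25 and −1.02, and the 6 tested lid genes had a median of −1.28. PSMD6 of the lid fell in the centred values (−0.73). It was not called as deposited (−0.32, adjusted p = 0.148) or without cycling sample 3 (−0.58, adjusted p = 0.0508), nor with the mean of its probe sets (−0.22, adjusted p = 0.407).

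PSMD4, a receptor for ubiquitin chains, had 3759, 2962, 3133 and 3455 on quiescent arrays, against 4844, 3731, 5186 and 4280 on cycling arrays. Quiescent sample 1 lay above cycling sample 2, so the groups overlap, and the difference was −0.85 (SE 0.20, adjusted p = 2.66e-03). Of the ATPases, which unfold substrates and open the core, all 5 tested fell with a median of −0.87. PSMC3 had a difference of −1.68, and PSMC1, PSMC4, PSMC2 and PSMC6 had −0.97, −0.87, −0.85 and −0.80. PSMC3 had 2510, 1639, 2005 and 1906 on quiescent arrays, against 6597, 3257, 6273 and 3874 on cycling arrays, and the groups do not overlap. After quantile normalization PSMD4, PSMC4 and PSMC6 were not called (adjusted p = 0.073, 0.0637 and 0.205).

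3 genes named PSMD encode chaperones that help to assemble the base of the 19S particle and leave it once it is built, and their calls differed. PSMD9 had 2663, 1806, 1992 and 2193 on quiescent arrays, against 4249, 3115, 4354 and 3930 on cycling arrays, a log2 difference of −1.27 (SE 0.21, adjusted p = 1.66e-04). PSMD10, also known as gankyrin, had 3421, 3595, 4081 and 3745 on quiescent arrays, against 4611, 4153, 4236 and 4621 on cycling arrays. The groups do not overlap for either gene. PSMD10 fell in the centred values (−0.66, SE 0.17, adjusted p = 6.01e-03) and was not called as deposited (−0.25, adjusted p = 0.117). PSMD5 had 595, 828, 750 and 661 on quiescent arrays, against 475, 679, 545 and 692 on cycling arrays. Its groups overlap, and it was the 1 gene of the 19S class that was not called. Its difference was −0.16 (SE 0.20, adjusted p = 0.569), turned to 0.25 as deposited (adjusted p = 0.318) and to 0.16 after quantile normalization (adjusted p = 0.548), and lay 0.17 above the median of all genes.

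The activators, which bind the ends of the core in place of the 19S particle, had different calls. PSME1 is a subunit of the interferon-inducible PA28 activator, and PSME3 encodes the nuclear PA28 gamma. PSME1 had 10455, 8827, 11259 and 11160 on quiescent arrays, against 8310, 8749, 11514 and 10232 on cycling arrays. PSME3 had 2099, 2016, 2054 and 1791 on quiescent arrays, against 2951, 3013, 3334 and 3814 on cycling arrays. PSME1 thus overlapped between the groups, whereas PSME3 was below every cycling array on all quiescent arrays. The difference of PSME1 was −0.30 (SE 0.19, adjusted p = 0.224) and that of PSME3 −1.13 (SE 0.18, adjusted p = 1.69e-04). PSME1 had 0.11 as deposited (adjusted p = 0.555) and 0.23 after quantile normalization (adjusted p = 0.193), and without cycling sample 2 it was called lower in the centred values (−0.44, adjusted p = 0.04). In rank from the lowest difference, PSME1 stood at 6105 of 11678, beside the median of all genes, and PSME3 at 1091.

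Ratios taken within an array do not depend on a scaling of that array by 1 factor, but quantile normalization can change them. The log2 ratio of PSME1 to PSME3 was 2.32, 2.13, 2.45 and 2.64 on quiescent arrays, against 1.49, 1.54, 1.79 and 1.42 on cycling arrays. It was higher on 4 of 4 quiescent arrays, by 0.82 in the mean (two-sided exact permutation p = 0.0286, the smallest that 70 assignments allow, adjusted over 4 pairs 0.0571). The log2 ratio of PSME4 to PSME3 was 0.42, 0.81, 0.50 and 0.75 on quiescent arrays, against 0.35, 0.36, −0.07 and 0.10 on cycling arrays. It too was higher on 4 of 4 quiescent arrays, by 0.43 (exact permutation p = 0.0286, adjusted 0.0571). Neither pair passed 0.05 after adjustment. With the mean of all probe sets of a gene in place of the brightest, the differences were 1.07 and 0.81, each with an adjusted exact permutation p of 0.0381. The unadjusted p could not fall below 0.0286. The adjusted value is lower only because PSMF1 to PSMB5 then had the same adjusted p, so it is no stronger evidence for these pairs. PSME1 has 1 probe set, and PSME3 and PSME4 have 4 and 3. PSME4, which encodes the PA200 activator, had 2811, 3530, 2909 and 3011 on quiescent arrays, against 3770, 3872, 3183 and 4094 on cycling arrays. Its quiescent sample 2 lay above cycling sample 3, and its difference of −0.69 (SE 0.17, adjusted p = 3.55e-03) was −0.28 as deposited and not called (adjusted p = 0.118).

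PSMF1 encodes PI31, named as an inhibitor of the core and also known as an adaptor for its transport. PSMF1 had 1855, 1782, 1757 and 1430 on quiescent arrays, against 3030, 2482, 2967 and 3153 on cycling arrays. The groups do not overlap, and the difference was −1.18 (SE 0.19, adjusted p = 1.69e-04). The log2 ratio of PSMF1 to PSMB5 differed by 0.09 between the groups, with −1.37 ± 0.13 on quiescent and −1.46 ± 0.06 on cycling arrays (SD, n = 4 each, exact permutation p = 0.229, adjusted 0.229). With the mean of all probe sets of a gene it differed by 0.66 and passed (adjusted exact permutation p = 0.0381). PSMB5 has 1 probe set. The other probe sets of PSMF1 had −1.11 (called lower), and −0.42 and 0.24 (both not called, at intensities of 110.7 to 310.8).

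The chaperones of the core work as 2 pairs, PSMG1 with PSMG2 and PSMG3 with PSMG4, which build the alpha ring. PSMG1 had 2868, 2275, 2103 and 1905 on quiescent arrays, against 6824, 4844, 6459 and 6089 on cycling arrays, a difference of −1.82 (SE 0.21, adjusted p = 6.79e-06). Its partner PSMG2 had 3413, 3246, 3701 and 3610 on quiescent arrays, against 4530, 4474, 5032 and 5354 on cycling arrays, a difference of −0.88 (SE 0.18, adjusted p = 8.89e-04). Both fell with no overlap between the groups. PSMG4 had 302, 204, 374 and 235 on quiescent arrays, against 1292, 594, 829 and 881 on cycling arrays, a difference of −2.09 (SE 0.28, adjusted p = 4.63e-05). Its partner PSMG3 had 1281, 942, 1103 and 1205 on quiescent arrays, against 1912, 1340, 2243 and 1689 on cycling arrays, a difference of −1.06 (SE 0.22, adjusted p = 1.26e-03). All 4 chaperones were called lower in all 3 scalings, and PSMG4 had the lowest difference of the 39 genes. That difference rests on dim quiescent values. The other probe sets of PSMG4 lay below the filter and were not called, with differences of −0.975 to 0.586. Whether the 2 partners of a pair differ was not tested. POMP, which helps the beta ring mature and lies outside the symbol rule, fell (−1.13), with 5849, 5049, 5236 and 5241 on quiescent arrays, against 10014, 7962, 8514 and 8714 on cycling arrays.

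**Figure D3:**
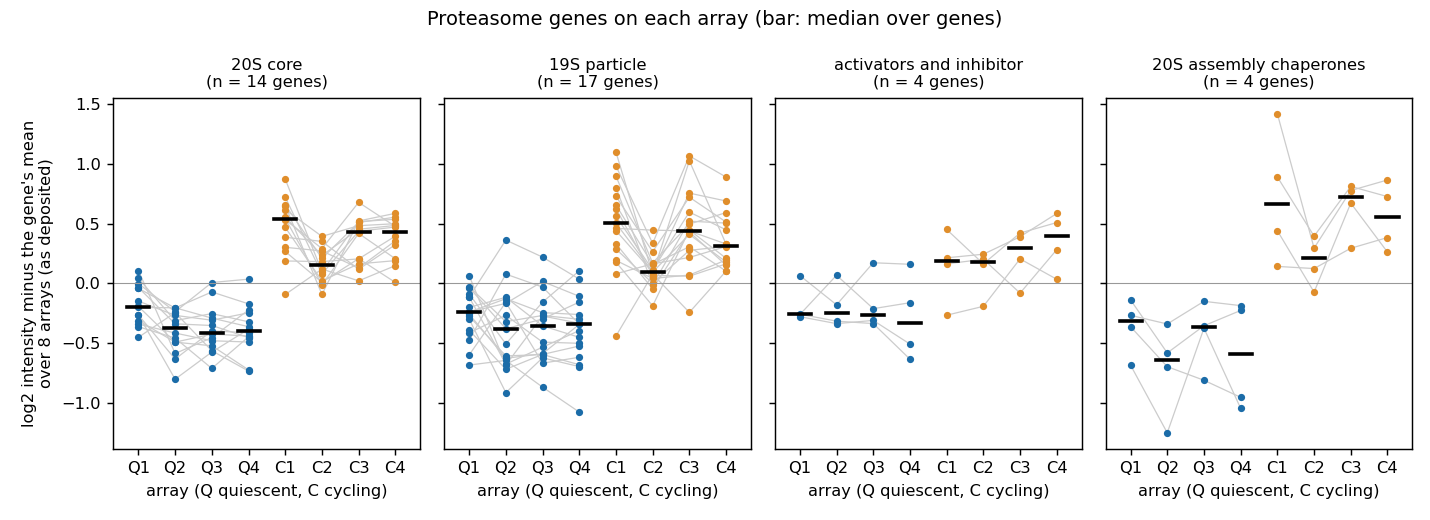
Log2 intensity of each proteasome gene minus its mean over 8 arrays, as deposited, on quiescent (Q1 to Q4) and cycling arrays (C1 to C4), by class, with the median over genes as a bar. Over all 39 genes the median lay between −0.38 and −0.26 on quiescent arrays and between 0.12 and 0.47 on cycling arrays, with the lowest cycling value on sample 2.

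Cycling sample 2 stood between the other cycling arrays and the quiescent ones. For 27 of the 39 genes it was the lowest cycling array in the deposited intensities, against 25.5% of all genes tested. The median over the 39 genes, relative to each gene's mean, was 0.12 on that array and 0.47, 0.43 and 0.35 on the other cycling arrays, and −0.26, −0.34, −0.35 and −0.38 on the quiescent arrays. Without cycling sample 2, 38 of the 39 genes fell, where 38.8% of all genes were called lower, and the proteasome median was −1.25. The signs of RNA quality also differed between the groups. For the ACTB control probe sets the 3′ signal over the 5′ signal, as log2, was 2.56 ± 0.18 on quiescent and 2.02 ± 0.20 on cycling arrays, and that of GAPDH 0.11 ± 0.02 and −0.05 ± 0.09 (SD, n = 4 each, exact permutation p = 0.0286 for both). Their part in the differences was not tested. All 4 B cell markers measured (MS4A1, CD79A, CD79B and PAX5) passed the filter, with summed intensities of 47000 to 58340 on quiescent and 46506 to 56488 on cycling arrays. Of the 4 T cell and 4 myeloid markers, 2 and 1 passed the filter, and their summed intensities were 194.8 to 433.8 and 141.5 to 333.1 on quiescent and 246.1 to 394.0 and 182.9 to 447.7 on cycling arrays. The plasma cell list (1 of 3 above the filter, XBP1) summed to 3251 to 4509 on quiescent and 4431 to 4633 on cycling arrays, the fibroblast list (2 of 3) to 241.6 to 444.4 and 268.6 to 433.6, and HBB alone to 140.6 to 230.0 and 76.1 to 242.0, and no marker was at 0.

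Other probe sets give a second reading of 22 of the genes, and 18 genes have 1 probe set. Of 39 such probe sets, 30 passed the filter, and they belong to 18 genes. In a fit of all probe sets, 16 of the 30 were called lower, 0 higher and 14 were not called, against 21.8% lower and 2.48% higher of all probe sets above the filter. PSME3 and PSMD4 were lower with every probe set above the filter, 4 for PSME3 and 3 for PSMD4, and the second probe set of PSMD1 fell too (−1.71). The other probe sets of PSMA1 had −0.91 and −0.89, both called lower. The dimmer probe sets went otherwise in several genes. The second probe sets of PSMD11 and PSMD12 had differences of −0.35 (adjusted p = 0.458, limma on every probe set) and −0.56 (adjusted p = 0.168), beside −1.43 and −1.25 of the brightest. The dimmer probe sets of PSMA3, at intensities of 89.0 to 482, had differences of 0.57 and 0.32 and were not called. With the mean of all probe sets of a gene 31 genes were called lower: PSMA3, PSMB1, PSMB2, PSMB7 and PSMD6 lost the call, PSMG4 no longer passed the filter, and PSMD11 and PSMD12 kept the call. The brightest probe sets of PSMA1, PSMA7, PSMD4 and PSME3 carry the suffix _x_at, which marks probes shared with other transcripts, so their intensities can include other RNA. Probe sets with other suffixes, such as _s_at, were not examined for shared probes.

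**Figure D4:**
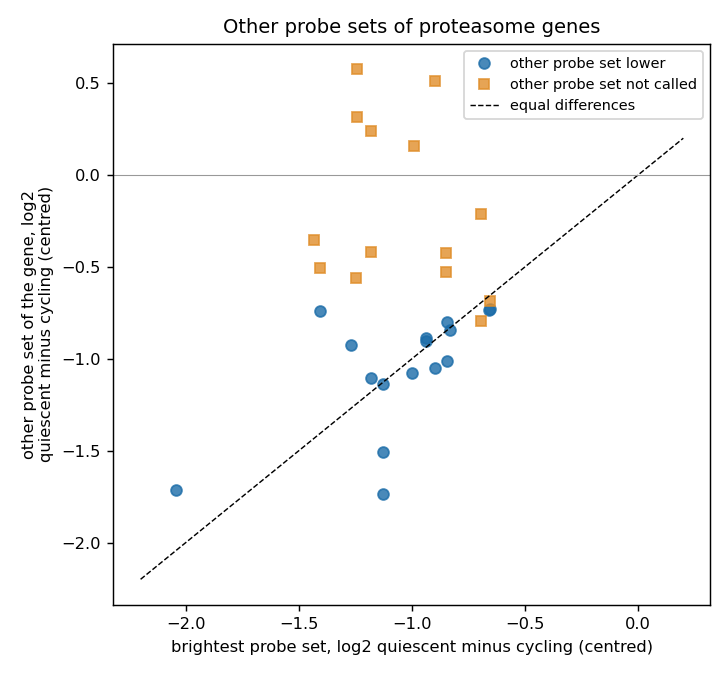
Centred log2 difference (quiescent minus cycling) of each of the 30 other probe sets above the filter against that of the brightest probe set of the same gene. The 16 called lower lie between −1.73 and −0.73, and 5 of the 14 that were not called lie above 0.

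Genes that work with the proteasome were read from the same fit, in which 32.5% of all genes were called lower and 2.8% higher. In the list of partners and receptors 13 of 20 tested fell and 0 rose, with a median of −0.62, and 6 fell and 1 rose as deposited. The deubiquitinases UCHL5 and USP14 had differences of −1.43 and −1.23, UBLCP1, a phosphatase that acts on the proteasome, had −1.24, and POMP is given above. UBQLN1, UBQLN2, ECPAS, ZFAND5, UBE3C, AKIRIN2 and PITHD1 were not called, with differences of −0.62 to 0.12. UBQLN2, a shuttle for ubiquitin-tagged proteins, was the 1 gene called higher as deposited (0.53, adjusted p = 0.0149). Of 7 tested genes for ubiquitin and for the E1 enzymes that activate it or ubiquitin-like proteins 5 fell and 0 rose, with a median of −0.91. SAE1, a subunit of the enzyme that activates SUMO, and NAE1, a subunit of the one that activates NEDD8, had differences of −1.32 and −1.05. The ubiquitin gene UBB and UBA1, the main ubiquitin-activating enzyme, had −1.04 and −0.91, while UBA3 and UBA6 had −0.33 and −0.54 and were not called. UBA1 was not called as deposited (−0.50, adjusted p = 0.0843) or after quantile normalization (adjusted p = 0.15), and 3 of the list fell as deposited.

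NFE2L1, NFE2L2 and NFE2L3 are transcription factors that bind the element printed above. NFE2L1 had 3781, 3368, 3800 and 3287 on quiescent arrays, against 2163, 2523, 2640 and 2030 on cycling arrays, and the groups do not overlap. Its difference was 0.20 in the centred values (SE 0.18, adjusted p = 0.415), which is 0.53 above the median of all genes, and it was called higher as deposited (0.61, adjusted p = 3.67e-03) and after quantile normalization (0.68, adjusted p = 1.71e-03). NFE2L2 had 2473, 3394, 3097 and 2816 on quiescent arrays, against 1723, 2459, 1811 and 2419 on cycling arrays, with a difference of 0.08 centred (adjusted p = 0.761) and 0.50 as deposited (adjusted p = 0.0325). NFE2L3 rose, with 275, 291, 361 and 280.4 on quiescent arrays, against 81.4, 219, 128 and 128 on cycling arrays, and its difference of 0.79 (SE 0.28, adjusted p = 0.035) rests on dim values. KEAP1, the adaptor that marks NFE2L2 for destruction, fell, with 798, 1038, 937 and 1089 on quiescent arrays, against 1456, 1838, 1736 and 1585 on cycling arrays. Of the 8 tested genes of this list 2 fell (KEAP1 with −1.19 and NGLY1 with −0.49), 1 rose and 5 were not called (NFE2L1, NFE2L2, MAFF, MAFG and BACH1), with a median of −0.08. NGLY1 was not called as deposited (−0.08, adjusted p = 0.646) and had 0.05 after quantile normalization. As deposited 1 fell and 3 rose.

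The neighbouring machinery varied. VCP, the ATPase that extracts ubiquitin-tagged proteins for the proteasome, fell with a difference of −1.17, and its cofactors UFD1, PLAA and FAF1 with −1.22, −0.95 and −0.49. The groups overlap for UFD1 and FAF1. FAF1 was not called as deposited (−0.08, adjusted p = 0.671) and had 0.05 after quantile normalization. The other 10 of 14 tested in that list were not called (NPLOC4, NSFL1C, FAF2, UBXN1, UBXN2A, UBXN4, UBXN7, UBE4B, DERL1 and DERL2), with a list median of −0.42. After quantile normalization NSFL1C and UBXN4 were called higher (0.37 and 0.43, limma adjusted p = 0.0234 and 0.0382). In this list 4 of 14 were called lower, where 32.5% of all genes were, and the median of all genes was −0.33. Without cycling sample 2 the count was 10, where 38.8% of all genes were called lower. The COP9 signalosome is a complex built like the lid, which removes NEDD8 from ubiquitin ligases. Of its 10 genes 9 fell, with a median of −0.88, and COPS2 was not called (−0.35). Among those that fell, GPS1, COPS3, COPS7A and COPS4 had −1.66, −1.09, −1.0 and −0.98. The groups overlap for GPS1 and COPS7A. The GPS1 difference (SE 0.40) rests on dim values, 110.5 to 380.6 on quiescent and 360.4 to 606.8 on cycling arrays. Of 10 cytosolic peptidases, which trim the peptides that leave the proteasome, 8 fell, with a median of −0.96. DPP3, BLMH, THOP1 and NLN had differences of −1.86, −1.59, −1.32 and −1.17, while TPP2 and NPEPPS had −0.39 and −0.04 and were not called. The groups overlap for THOP1. As deposited, 3, 7 and 6 genes of these 3 lists were called lower and 0 higher, against 15.4% of all genes lower and 12.3% higher.

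**Figure D5:**
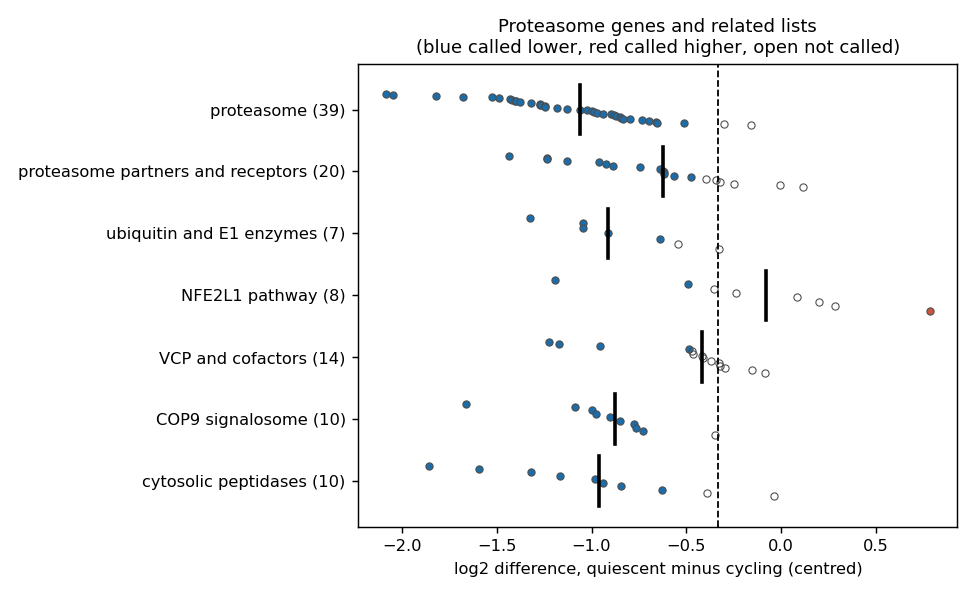
Centred log2 difference (quiescent minus cycling) of proteasome genes and of 6 lists of related genes, with the number tested in brackets, a bar at each median and the median of all genes tested as a dashed line. The proteasome median is −1.06, the NFE2L1 list median of −0.08 lies above the median of all genes, and the other list medians lie between −0.96 and −0.42.

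The 8 genes that share the symbol pattern but encode no proteasome protein were read apart. Of 7 tested, 2 fell, 1 rose and 4 were not called. PSMC3IP, a factor of homologous recombination, fell (−1.96, SE 0.27, adjusted p = 6.56e-05), with 762, 972, 356 and 440.2 on quiescent arrays, against 2082, 1711, 1352 and 1749 on cycling arrays. The noncoding PSMA3-AS1 had 835, 1648, 1463 and 1610 on quiescent arrays, against 506, 1061, 580 and 615 on cycling arrays. It was higher in quiescent cells (0.61, SE 0.23, adjusted p = 0.047, and 1.02 as deposited, adjusted p = 0.0103), though quiescent sample 1 lay below cycling sample 2. It did not pass in the centred values without quiescent sample 2, 3 or 4 or cycling sample 1, 3 or 4 (0.49 to 0.60, adjusted p = 0.093 to 0.13). PSMB8-AS1 fell with centring (−0.87) and was not called as deposited (adjusted p = 0.191) or without cycling sample 3 or 4 (adjusted p = 0.0634 and 0.0518). PSME3IP1, a partner of PSME3, PSMD6-AS2, PSMD14-DT and PSMG3-AS1 were not called, with differences of −0.31 to 0.24, and PSMD7-DT did not pass the filter.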

How the data were processed

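The authors deposited MAS5 intensities (linear), as the submitters' processing notes name them, for 54675 probe sets, 62 of them controls, on 8 arrays; no MAS5 version is stated. The values fit a scaling of each array to a mean of 500.1 after trimming 2% at both ends. Intensities under 1 were set to 1, logged and centred on array medians, which were 72.2 to 113.8 and spanned 0.656 on the log2 scale; the number of arrays limits the precision. Symbols came from GEO's platform annotation (41097 probe sets with 1 symbol, 1801 with several and left unnamed). Each gene was read from its probe set with the highest mean log2, and genes whose mean lay below the median probe set (intensity 83.3) were left out, which kept 11678 of 19775. Groups came from sample titles. limma 3.58.1 in R 4.3.3 (lmFit, then eBayes with trend and robust) tested the 2 groups, with Benjamini-Hochberg p-values over these genes and a threshold of 0.05; the fit was tested on simulated data. Ratios within arrays had two-sided exact permutation tests over 70 assignments; another planned pair needed PSME2 and was not made. Any matching gene could be named; values by array are given for genes set by role and for the lowest and highest difference of each class, and related lists name the 4 largest differences and every uncalled gene. PSMA8, PSMC3, PSMC3IP, PSMA3-AS1, PSMA3, POMP, NFE2L1, NFE2L2, NFE2L3 and KEAP1 are given by array after their values were seen. The members and lists were chosen with earlier results of these data known. Alternatives were the deposited scaling, quantile normalization, adding 32 before log2, other filters, another variance model, the mean of probe sets, sample number as a block and leaving out each array; the signal share was added after seeing the data.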

Additional observations from a re-analysis of the deposited data

Results flagged for a closer look

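Of 86 groups of 4 arrays examined (39 genes and 4 ratios, in both fractions), 7 held 1 array far from the other 3. For a single group chance gives about 1 in 20. The genes and ratios were read on the same arrays, so the 86 groups are not independent. The count of 7 therefore cannot be compared with that rate. The value in brackets is the gap from the far array to its nearest neighbour divided by the group's whole range, in centred log2 values. Each is above Dixon's critical value for 4 samples. Cycling sample 2 was the low array for PSMA3 (0.95), PSMA5 (0.891), PSMB5 (0.872), PSMD10 (0.952) and PSMF1 (0.848). Quiescent sample 4 was the low array for PSMA1 (0.851) and PSMF1 (0.833). As deposited, PSMA3 had 9349, 5587, 8550 and 8937 on the cycling arrays and PSMD10 had 4611, 4153, 4236 and 4621. The median intensity of cycling sample 2 was 98.1, and those of the other cycling arrays were 72.2 to 79.3. Centring therefore lowers cycling sample 2 relative to the other cycling arrays. All 5 genes with a low cycling sample 2 were called lower with that array and without it.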

How the results depend on the processing

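The 37 proteasome genes called lower became 28 to 37 under the other settings run with all 8 arrays. The 28 came with quantile normalization, where 16.4% of all genes were called lower. The share of all genes with the mean of probe sets is not given. When each array was left out in turn, 35 to 38 were called lower, against 2943 to 4529 of all 11678 genes. Of the 39, 35 were called lower in every one of those 8 fits and 23 under every setting with all 8 arrays. Class medians, with 20S core, 19S particle, activators and 20S chaperones in that order, were −0.71, −0.61, −0.499 and −1.029 as deposited, −0.589, −0.592, −0.419 and −0.971 after quantile normalization, and for all members −0.649 and −0.625. With the mean of probe sets the core, activators and chaperones had −0.858, −0.592 and −1.062, and the activators and chaperones lay −0.296 and −0.766 from all genes tested. Those chaperone values leave out PSMG4, which no longer passed the filter, and PSMG1, PSMG2 and PSMG3 have 1 probe set each. Relative to all genes, the core had −0.551 after quantile normalization. Leaving out arrays gave medians of −1.255 to −1.001 for all members, −1.304 to −1.056 for the core, −1.161 to −0.907 for the 19S particle, −1.01 to −0.83 for activators and −1.649 to −1.308 for chaperones. With the mean of probe sets the ratio difference of PSMB10 to PSMB7 turned to −0.094, and those of PSME1 to PSME3, PSME4 to PSME3 and PSMF1 to PSMB5 became 1.074, 0.812 and 0.656, each with an adjusted exact permutation p of 0.0381. For PSME1 to PSME3 and PSME4 to PSME3 the unadjusted p was already the smallest possible with the brightest probe sets. Signs turned for PSMD5 (0.251 as deposited, 0.158 quantile, 0.055 mean of probe sets), PSME1 (0.109, 0.232 quantile), PSME3IP1 (0.136, 0.258 quantile), PSMG3-AS1 (0.103 as deposited) and the gene PSMD6-AS2 (0.388, 0.158 quantile, 0.047 with 32 added, 0.297 mean of probe sets, and −0.128 to 0.088 when arrays were left out, above 0 without quiescent sample 1 or cycling sample 2 or 4). Of the related lists, partners had 6, 5 and 7 lower as deposited, after quantile normalization and with the mean of probe sets, ubiquitin and E1 genes 3 in each, and COP9 genes 5 after quantile normalization. The NFE2L1 list had 1 lower in these 3, with 32 added, with no filter and with the other variance model. Without an array it had 1 to 2 (1 without quiescent sample 2, 3 or 4 or cycling sample 1, 3 or 4). VCP genes had 3 to 10, with 10 without cycling sample 2, where 38.8% of all genes were called lower. With sample number as a replicate block 37 proteasome genes were lower, as without it, VCP genes 7, and all genes 4439 lower and 465 higher, against 3794 and 327 without the block. After each gene's group mean was taken off, the deviations of same-numbered samples correlated at 0.344, 0.196, 0.11 and 0.036. In these deviations samples 1 and 2, but not 3 and 4, matched their own number best. Since 1 of the 4 correlations was not over 0.1, the numbers were not taken to pair the samples. Such correlations cannot show that same-numbered samples are unpaired. The causes of these changes were not tested.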
